A study of Mus musculus with 28 samples.

Results

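The genes described here encode the ion channels that set electrical excitability in the mouse pituitary: the voltage-gated potassium, calcium and sodium channels, the other potassium channels, the HCN pacemaker channels, and their accessory subunits. They were taken by symbol, as every row that starts with Kcn or Cacn, or with Scn or Hcn and a digit. This gave 142 of 32594 rows of the count table. Classes were assigned by symbol as well, not by measured function. The rows fell into 30 pore subunits of voltage-gated potassium (Kv) channels, 10 silent or modifying Kv subunits, 13 Kv accessory subunits, 8 pore and 4 accessory subunits of calcium- or sodium-activated potassium channels, 15 inward rectifiers, 14 two-pore-domain potassium channels (K2P), 4 HCN channels, 10 pore and 16 accessory subunits of voltage-gated calcium (Cav) channels, 10 pore and 4 accessory subunits of voltage-gated sodium (Nav) channels, and 4 noncoding transcripts named after a channel gene.

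RNA of whole pituitary glands from 28 C57BL/6J mice, labelled as 8 weeks old, was sequenced, 1 library per mouse. The 16 females comprised 4 home cage controls, 4 mice restrained for 20 min, 4 mice after 12 h of paradoxical sleep deprivation (PSD) and 4 mice given both (PSD + restraint), and the 12 males comprised 4, 2, 3 and 3 mice of the same groups. PSD was imposed on small platforms over water, where the loss of muscle tone in rapid-eye-movement sleep wakes the animal. Glands were collected 18 h after PSD ended and, in restrained mice, 10 min after restraint. Every mouse, controls included, had been habituated to the PSD tank on preceding days, so the controls were not naive to it. Whole glands hold the anterior lobe together with the neurointermediate lobe, and in such bulk RNA fewer cells of a type and less RNA per cell cannot be told apart.

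As background, hormone-secreting pituitary cells fire action potentials on their own, and the calcium that enters through Cav channels during each spike or burst drives hormone release. Nav and T-type Cav channels help to start a spike and L-type Cav channels carry much of the calcium. Kv channels end the spike, large-conductance calcium-activated (BK) channels shape bursts, and inward rectifiers, K2P and HCN channels set the resting potential. Several of these channels are controlled by hypothalamic hormones and by glucocorticoids.

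Library totals ran from 14024465 to 52948531 counts with a median of 33389717, and the channel genes together took 1845 to 2726 CPM (counts scaled to a common library total; values of single genes and marker sums below also carry the TMM factor of the mouse). Of the 142 genes, 130 passed the low-count filter among 18059 genes tested in females, 130 among 18271 in males and 135 among 18936 in all mice. Cacng1, Kcna10, Kcne1, Kcng3, Kcnj14, Kcnk7 and Kcnk16 did not pass it over all mice, and Kcnk16 had no read in any mouse. The pituitary hormone transcripts summed to 254699 to 363695 CPM in females and 238830 to 316969 in males, so hormone-cell transcripts were abundant in every mouse. In 4 mice, markers of brain tissue stood apart from all others. They were forebrain and astrocyte markers in female PSD mouse 1, female PSD + restraint mouse 4 and male control mouse 1. In female PSD mouse 3 they were choroid plexus markers. Its oligodendrocyte and astrocyte markers, at 165 and 76.5 CPM, were also above those of every mouse outside these 4, which reached 99.0 and 69.1 CPM. Some counts that rest on these mice are also given without them.

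Levels were compared between genes per transcript length, as TPM (length-corrected counts that sum to the same total in every mouse), averaged over all 28 mice. By this measure 89 of the 142 genes reached 1 TPM and 31 reached 10 TPM, and the 10 highest held 44.6% of all channel TPM. The highest was Kcnh2, the ERG channel whose current brakes firing in hormone cells, at 91.6 TPM, with group means from 88.2 to 96.8. Kcnh8, another ether-a-go-go type Kv pore subunit, was at 17.8 TPM. Kcnip3, a calcium-binding protein of A-type channels that also acts on transcription, led the Kv accessory subunits at 56.5 TPM, with group means from 47.7 to 67.7. Silent Kv subunits were low, with Kcnf1 at 1.43 TPM and Kcng1 at 1.19 TPM.

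The sodium-activated potassium channel Kcnt1 stood at 23.4 TPM and the BK pore Kcnma1 at 13.5 TPM, while the BK accessory subunits Kcnmb4 and Kcnmb2 stood at 31.0 and 10.1 TPM. Among channels that hold the resting potential, the K2P genes Kcnk2 (48.8 TPM) and Kcnk1 (31.3 TPM) were above Kcnj3 (16.5 TPM), a subunit of channels opened by inhibitory receptors, and Kcnj11 (12.3 TPM), the pore of ATP-sensitive channels. HCN channels were led by Hcn3 at 8.02 TPM and Hcn2 at 5.66 TPM. Calcium channel pores were led by the L-type Cacna1d at 23.0 TPM and the P/Q-type Cacna1a at 22.0 TPM, whose group means (20.6 to 28.2 and 19.5 to 25.8) overlapped, and by the T-type Cacna1i at 12.0 TPM. Their accessory subunits Cacnb3 (61.3 TPM) and Cacna2d1 (57.3 TPM) were above every calcium channel pore. Sodium channel pores were led by Scn8a at 22.2 TPM, Scn3a at 14.5 TPM and Scn2a1 at 8.82 TPM, and their accessory subunit Scn2b was at 9.92 TPM. The levels depend on the length used: with the union of all exons as length, Hcn2 (9.67 TPM) was above Hcn3 (5.08 TPM), Kcnk1 (42.7 TPM) above Kcnk2 (28.7 TPM) and Scn7a (13.3 TPM) and Scn3a (11 TPM) above Scn8a, while Kcnma1 was at 4.60 TPM, Cacna1a at 9.37 TPM, Scn8a at 8.14 TPM and Kcnmb4 at 16 TPM.

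**Figure D1:**
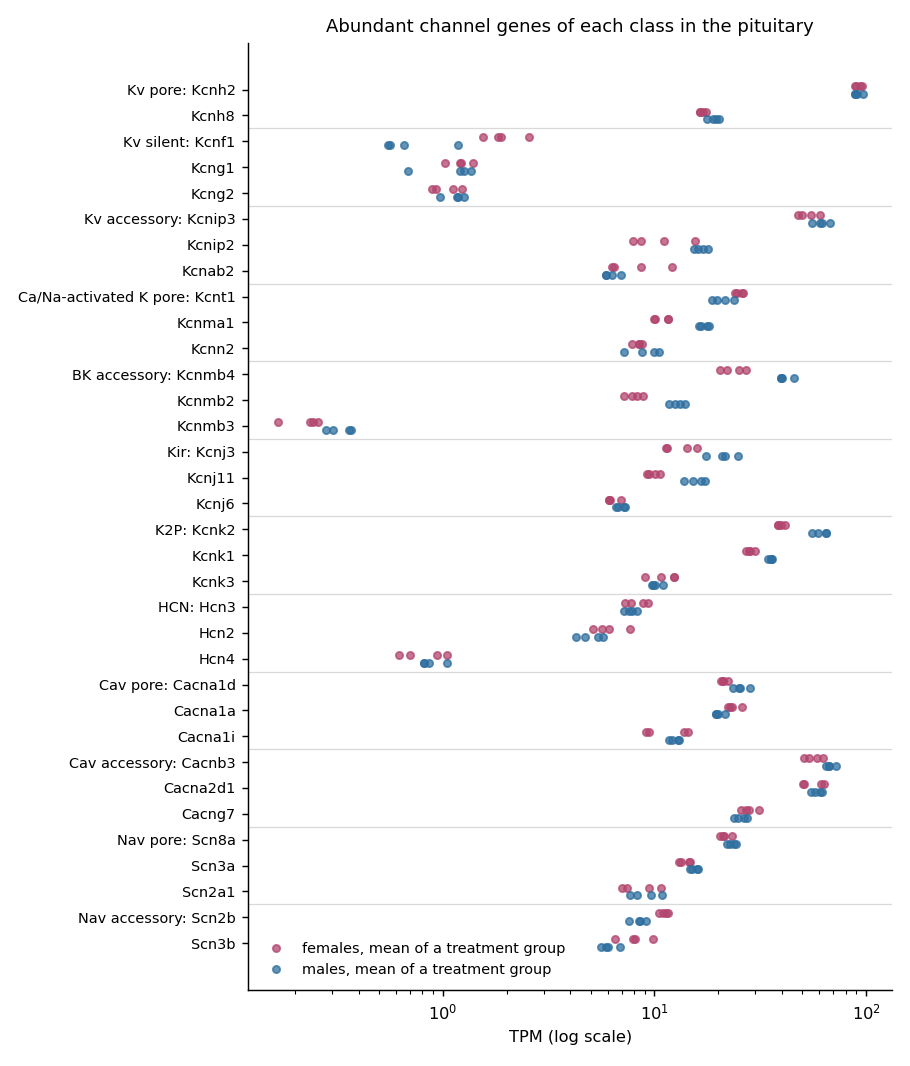
TPM (log axis) of 2 or 3 of the most abundant genes in each channel class, noncoding transcripts left out, with each point the mean of 1 of the 8 groups and females and males in separate colours. Kcnh2 stands highest at 91.6 TPM, and Cacnb3 and Cacna2d1 stand above every calcium channel pore.

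The comparison with the widest reach was that of females with males over the 4 treatment groups. A gene was called where edgeR's quasi-likelihood test gave an adjusted p of at most 0.05 over all genes tested and the change was at least 1.25-fold. By this rule 14.9% of all 18936 genes were called, and 47 of the 135 channel genes (34.8%), 26 higher (19.3%, against 7.07% of all genes) and 21 lower (15.6%, against 7.84%) in females. The median size of the change was 0.32 on the log2 scale over the channel genes and 0.13 over all genes. Among the home cage controls alone, 10.7% of all genes and 33 of 135 channel genes (24.4%) were called. Of the 47, 29 were called there too, all in the same direction. Those not called there included Hcn2, Kcnt1, Kcnmb4os1, Kcnc1, Kcnh1, Kcnh4, Kcnf1, Kcns2, Kcnv2, Kcnj8, Kcnk18, Cacna1e, Cacng6 and Scn4a. Over the 4 treatment groups 82 channel genes lay above 0 and 53 below. In the controls alone this lean was absent, with 61 above and 74 below. Hormone genes differed with sex in the same libraries, with log2 changes of 2.04 for Prl, -1.05 for Gh, -0.72 for Lhb and -2.40 for Fshb, and their part in the channel differences was not tested.

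The BK pore gene and 2 of its 4 accessory subunit genes were lower in females. Kcnma1, the pore, was at 24.9 to 33.6 CPM in the 16 females, with a median of 29.1, and at 39.0 to 47.0 CPM in the 12 males, with a median of 43.3. No female overlapped a male. The log2 change was -0.59 (SE 0.04, adjusted p = 3.11e-11 by edgeR). Kcnmb4, the accessory subunit that slows BK gating and is known from neurons, was at 14.7 to 25.7 CPM in females with a median of 18.8, and at 26.8 to 37.3 CPM in males with a median of 31.6, again without overlap (log2 change -0.73, SE 0.07, adjusted p = 4.98e-09). Kcnmb2, the subunit that makes BK channels inactivate, was also lower (log2 change -0.61, SE 0.12, adjusted p = 0.000206), but its ranges of 8.81 to 17.7 and 14.2 to 32.7 CPM overlapped. In the controls alone the log2 changes were -0.64 for Kcnma1 and -0.85 for Kcnmb4.

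Both transcripts that lie on the opposite strand at the Kcnmb4 locus were lower in females as well, Kcnmb4os2 by a log2 change of -0.84 (adjusted p = 2.44e-05) and Kcnmb4os1 by -0.89 (adjusted p = 0.00132). In GENCODE M21 on GRCm38, Kcnmb4 lies at chr10:116417861-116473878 on the minus strand, Kcnmb4os1 at chr10:116418052-116421237 on the plus strand, wholly within it, and Kcnmb4os2 at chr10:116473163-116475319 on the plus strand across its start. The library kit keeps strand, but whether the counting used it is not given in the sources used here. Without it, reads of these genes cannot be told apart where they overlap. Sodium-activated potassium channels differed the other way, with Kcnt1 higher in females by 0.35 (adjusted p = 2.40e-05) and Kcnt2 by 0.51 (adjusted p = 0.00712).

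Among Kv pore subunits 4 were higher and 3 lower in females. The 3 lower ones were all Shaker-type genes, of which others were not called. Kcna5 was at 15 to 27.8 CPM in females (median 19.6) and 30.8 to 43.9 CPM in males (median 35.7), without overlap (log2 change -0.89, SE 0.07, adjusted p = 1.34e-10). Kcna4, an inactivating member, was at 0.814 to 4.08 CPM in females (median 1.89) and 4.46 to 8.07 CPM in males (median 5.98), also without overlap (log2 change -1.52, SE 0.18, adjusted p = 2.29e-07). Kcna2, a delayed rectifier of axons, was the other (log2 change -0.63, adjusted p = 8.49e-05). Kcnd3, the pore of a somatodendritic A-type channel, was higher in females at 41.3 to 55.5 CPM, against 27.7 to 41.8 CPM in males, ranges that just overlapped (log2 change 0.50, SE 0.05, adjusted p = 3.61e-09). Kcnh1, Kcnh4 and Kcnc1 were the other higher ones, with log2 changes of 0.46, 0.90 and 0.40. In the home cage controls alone Kcnd3 was called higher, but Kcnh1, Kcnh4 and Kcnc1 were not. Kcnh4 rests on 7 to 101 counts per mouse.

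The proteins that bind A-type channels showed the largest contrasts among the Kv accessory genes. Kcnip4 was at 4.19 to 11 CPM in females (median 6.82) and 1.36 to 3.06 CPM in males (median 1.95). Kcnip1 was at 2.99 to 6.23 CPM in females (median 3.76) and 0.616 to 2.32 CPM in males (median 1.04). Neither overlapped between the sexes, and their log2 changes were 1.77 (SE 0.14, adjusted p = 2.45e-10) and 1.87 (SE 0.17, adjusted p = 1.67e-09). Kcnip2, of the same family and higher than both per transcript length, was lower in females (log2 change -0.61, adjusted p = 0.000245), as was Kcnab1, a beta subunit that speeds inactivation (log2 change -0.56, SE 0.07, adjusted p = 2.84e-07). Of the silent subunits Kcnf1, Kcns2 and Kcnv2 were higher, by 1.49, 1.39 and 0.40 on the log2 scale, and Kcng4 was lower by a log2 change of -1.2. In the home cage controls alone no silent subunit was called higher, while Kcng4 was called lower (log2 change -1.81).

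Of 14 inward rectifier genes tested, 4 were lower and 1 higher in females. Kcnj3 averaged 38.8 CPM in females and 58.1 CPM in males (log2 change -0.60, SE 0.10, adjusted p = 3.84e-05), and Kcnj11 8.61 and 12.9 CPM (log2 change -0.59, SE 0.10, adjusted p = 2.01e-05). Kcnj8, the other ATP-sensitive pore, and Kcnj1 were lower by log2 changes of -0.42 and -1.24. The 1 that was higher, Kcnj13, rests on a single mouse described further on, and so does Kcne2 among the Kv accessory genes. K2P channels split, with 3 higher and 2 lower. Kcnk2, the stretch-sensitive TREK channel, was at 46.8 to 61.3 CPM in females (median 54.2) and 63.1 to 88.4 CPM in males (median 79.3), without overlap (log2 change -0.55, SE 0.05, adjusted p = 5.51e-10). Kcnk12, a THIK channel subunit, went the other way without overlap, at 7.50 to 16.2 CPM in females (median 10.6) and 3.45 to 7.11 CPM in males (median 5.78), with a log2 change of 1.0 (SE 0.12, adjusted p = 2.58e-07). Kcnk9 was lower (log2 change -0.96) and Kcnk5 and Kcnk18 were higher (0.57 and 1.01), as was Hcn2 (0.35, adjusted p = 0.00689). Kcnk18 rests on 2 to 24 counts per mouse, and neither Kcnk18 nor Hcn2 was called in the home cage controls alone.

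Among calcium channels, the T-type Cacna1g had the widest spread. It was at 10.3 to 77.6 CPM in females (median 20.8) and 3.92 to 7.37 CPM in males (median 6.16), with no overlap although the females alone spanned a wide range. Its log2 change was 2.15 (SE 0.30, adjusted p = 2.17e-06), a 4.44-fold difference, and 3.03 in the controls alone. Another T-type gene, Cacna1h, was lower in females at a mean of 19.7 CPM against 28.9 CPM (log2 change -0.54, SE 0.10, adjusted p = 0.000145), and Cacna1i, the third, was not called (log2 change -0.04, adjusted p = 0.746). The L-type Cacna1c averaged 48.0 CPM in females and 29.9 CPM in males (log2 change 0.68, SE 0.08, adjusted p = 2.75e-07), and the R-type Cacna1e was higher by 0.78. Cacna1e was not called in the home cage controls alone. Among the genes classed by symbol as their accessory subunits, Cacng3 and Cacng6 were called lower, with log2 changes of -1.68 and -0.37.

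Scn10a and Scn11a, sodium channel pores known from sensory neurons, were higher in females, Scn10a by a log2 change of 1.23 (SE 0.33, adjusted p = 0.00454) and Scn11a by 0.88 (SE 0.17, adjusted p = 0.000162), and in controls alone by 2.41 and 1.53. The accessory subunits Scn2b and Scn3b were higher by 0.48 and 0.50, with Scn2b at a mean of 38.5 CPM in females and 27.3 CPM in males. Scn4a, the skeletal muscle pore, was lower (log2 change -0.69, adjusted p = 0.00184). In all, 9 channel genes had no overlap in CPM between the 16 females and 12 males (6.67% of those tested, against 2.08% of all genes), of which Kcnip4, Kcnip1, Kcnk12 and Cacna1g were higher in females and Kcnma1, Kcnmb4, Kcna5, Kcna4 and Kcnk2 lower. All 9 kept their calls when any 1 mouse was left out.

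**Figure D2:**
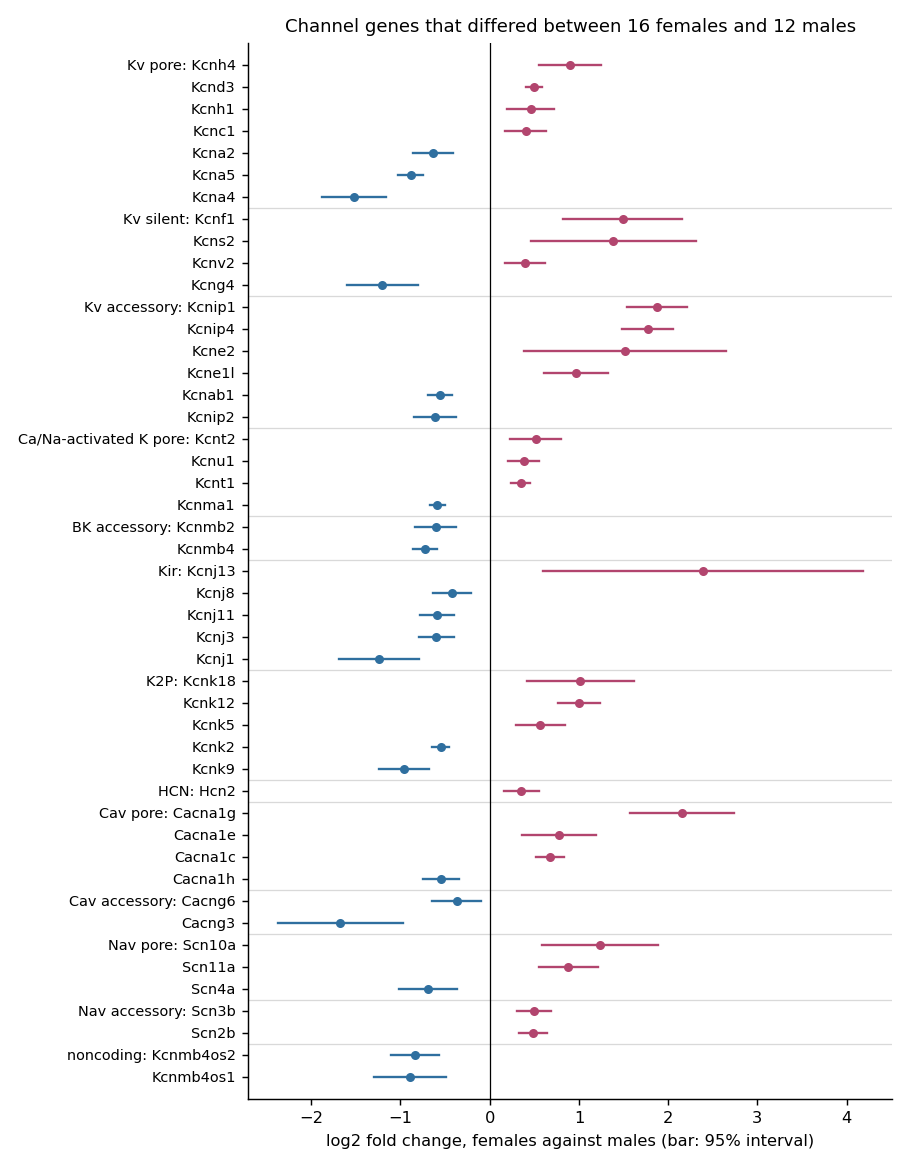
Log2 fold change, females against males, of the 47 called channel genes by class, with points for the estimate and bars for its 95% interval. The 26 genes to the right of 0 were higher in females and the 21 to the left higher in males.

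The combined challenge was the 1 with most channel genes called against controls. Over all mice with sex as a covariate, PSD + restraint changed 5.5% of all genes and 9 of the 135 channel genes (6.67%), a share near that of all genes. Of these 8 were higher (5.93%, against 4.06% of all genes) and 1 lower (0.741%, against 1.44%). Kcne4, Kcnmb4os1, Scn9a, Kcnt2, Kcnh1, Kcnk5 and Cacna2d3 were among those that rose. Females alone had 5 of 130 called (3.85%, against 2.34% of all genes) and males alone 4 of 130 (3.08%, against 2.54%), with Kcne4 in both. These shares are near those of all genes, and the values below belong to single genes.

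Kcne4 is a small single-pass subunit that joins Kv channels and is known to damp their current. Its level was low, with 7 to 67 counts per mouse. In females it was at 0.783, 0.724, 0.456 and 0.342 CPM in the 4 controls and at 2.31, 1.27, 1.04 and 1.71 CPM in the 4 mice given PSD + restraint. In males it was at 0.382, 0.362, 0.249 and 0.336 CPM in controls and 1.33, 1.05 and 0.744 CPM after PSD + restraint. The groups did not overlap in either sex. The rise was 1.52 on the log2 scale over all mice (SE 0.26, adjusted p = 0.000263 by edgeR), or 2.88-fold, with 1.40 in females (adjusted p = 0.0385) and 1.67 in males (adjusted p = 0.0253).

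After restraint alone Kcne4 was at 1.14, 1.36, 0.519 and 0.678 CPM in females and 0.482 and 1.2 CPM in males, and after PSD at 0.727, 0.491, 0.547 and 0.449 CPM in females and 0.633, 0.842 and 0.462 CPM in males. Restrained and control females overlapped, while both restrained males and all 3 PSD males were above the 4 male controls. Neither single challenge passed the test over all mice, with log2 changes of 0.98 for restraint (adjusted p = 0.0595) and 0.42 for PSD (adjusted p = 0.417). PSD + restraint exceeded PSD alone by 1.10 (SE 0.27, adjusted p = 0.0176), whereas its excess over restraint alone, 0.55, did not pass (adjusted p = 0.356). Leaving out any 1 of the 28 mice kept the Kcne4 call against controls over all mice, at log2 changes from 1.40 to 1.68. Within 1 sex it was less secure: the call was lost without any of 7 of the 16 females (controls 2, 3 and 4, PSD mouse 3, and PSD + restraint mice 1, 2 and 4) or any of 4 of the 12 males (controls 3 and 4, and PSD + restraint mice 1 and 2). The call against PSD was lost without female PSD mouse 4.

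Kcnmb4os1, the transcript opposite Kcnmb4, rose by 1.45 (SE 0.29, adjusted p = 0.00138). In males it was at 0.297, 0.306, 0.320 and 0.216 CPM in controls and at 0.957, 0.616 and 0.806 CPM after PSD + restraint. In females it was at 0.206, 0.181, 0.0285 and 0.114 CPM and at 0.373, 0.367, 0.335 and 0.427 CPM. The groups were apart in both sexes at a level of few reads. Restraint alone gave a log2 change of 1.08 that did not pass (adjusted p = 0.0638).

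Scn9a, the sodium channel pore known for its role in nociceptors, rose by 0.59 (SE 0.14, adjusted p = 0.00571). In females it was at 3.54, 3.03, 2.76 and 3.22 CPM in controls and at 5.22, 4.89, 5.0 and 5.40 CPM after PSD + restraint, clear of the controls (log2 change 0.69, SE 0.14, adjusted p = 0.0177). In males it was at 1.93, 4.31, 3.02 and 3.60 CPM and at 5.25, 4.93 and 2.85 CPM, and these overlapped through male PSD + restraint mouse 3. Markers of sensory ganglia were near the floor, their 8 genes summing to 1.91 to 2.62 CPM over the controls of both sexes, but to 2.53 to 4.03 CPM in females and 4.04 to 6.26 CPM in males after PSD + restraint, and their part in this rise was not tested.

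Kcnk5, Kcnt2, Kcnh1 and Cacna2d3 rested on smaller steps, with adjusted p between 0.0394 and 0.0497. Kcnk5, an alkaline-sensitive K2P channel, rose by 0.58 over all mice and was at 2.57, 2.17, 2.09 and 2.18 CPM in male controls and 3.92, 4.96 and 2.67 CPM in males after PSD + restraint. It did not overlap in males but did in females. Kcnt2 (0.63) is a sodium-activated potassium channel, Kcnh1 (0.57) an ether-a-go-go channel, and Cacna2d3 (0.43) an accessory calcium channel subunit. The controls for Kcnh1 include male control mouse 1, which was far below the other male controls, as given further on. Kcnt2 had a mouse far above its group in female controls (1.25 CPM) and in females after PSD + restraint (1.86 CPM). Over the 28 fits that each left out 1 mouse, the calls of Kcnh1, Kcnk5, Kcnt2 and Cacna2d3 were lost in 6, 8, 11 and 20, while Kcnmb4os1 and Scn9a kept theirs in all. In females Cacna1i (0.56, adjusted p = 0.0482) rose too and Scn11a fell by 0.95 on the log2 scale (adjusted p = 0.0395), calls that were lost in 10 and 7 of the 16 fits that each left out 1 female. In males Kcnn2, a small-conductance calcium-activated channel, fell by 0.48 (adjusted p = 0.0345), from 14.9, 14.4, 18.2 and 15.7 CPM in controls to 11.7, 12.3 and 9.36 CPM. The Kcnn2 call was lost without male control mouse 3 or 4 or any 1 of the 3 PSD + restraint males.

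Marker sums of other cell types also differed in this comparison. Neurointermediate lobe markers (7 genes) summed to 639 to 969 CPM in female controls and 919 to 1464 CPM in females after PSD + restraint, and to 183 to 828 and 812 to 1591 CPM in males. Smooth muscle markers (5 genes) summed to 15 to 20.1 CPM in female and 14.8 to 19.9 CPM in male controls. After PSD + restraint they summed to 23.3 to 34.3 and 26.9 to 31.6 CPM, without overlap in either sex. After PSD alone they summed to 19.1 to 26.5 CPM in females and 24.1 to 26.1 CPM in males, overlapping the controls in females only. With a neurointermediate lobe score in the model, only Kcne4 (1.32, adjusted p = 0.00797 by edgeR) and Kcnmb4os1 (1.45, adjusted p = 0.00972) were called over all mice. All other calls over all mice were lost, among them Scn9a (0.30, adjusted p = 0.134) and Kcnk5 (0.53, adjusted p = 0.172). None of the 5 genes called in females passed either. Without the 4 mice that stood apart, 6 channel genes were called over all mice and none of the 5 in females. The shares of all genes called in these fits are not given here.

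**Figure D3:**
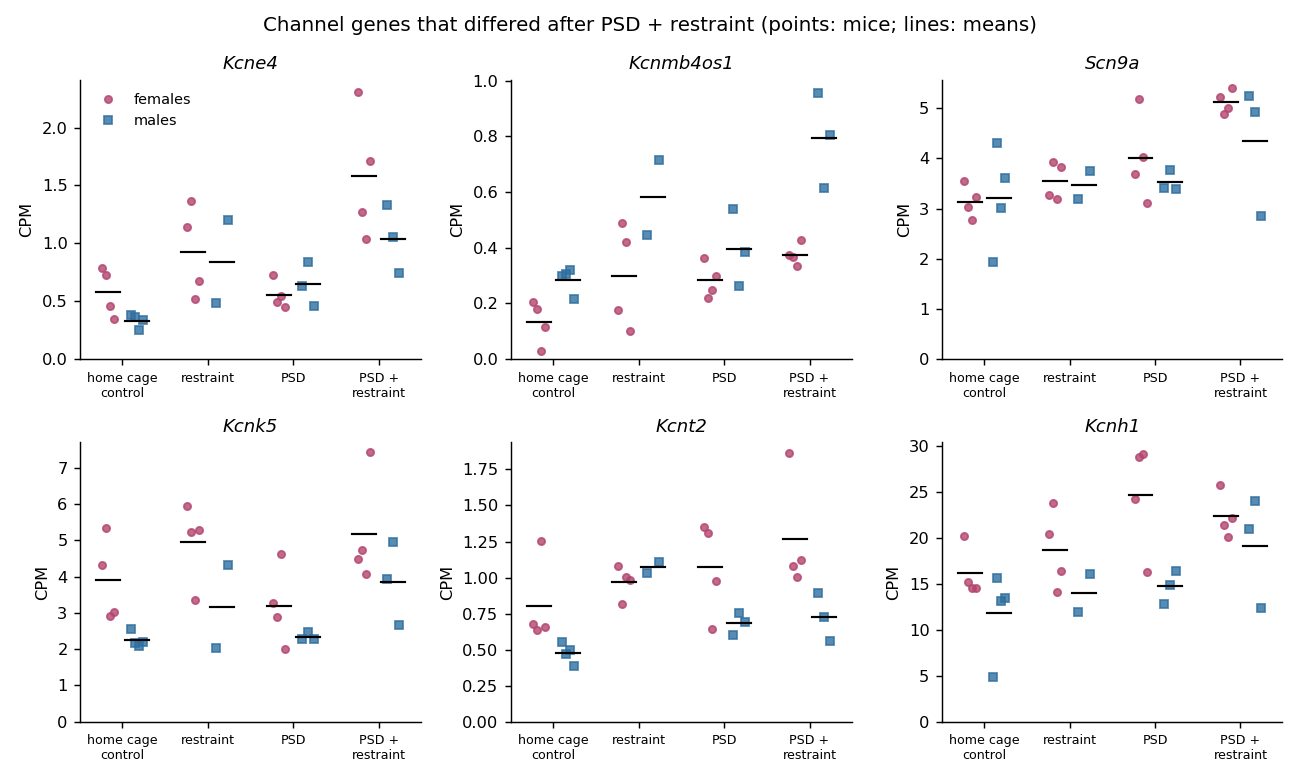
CPM of Kcne4, Kcnmb4os1, Scn9a, Kcnk5, Kcnt2 and Kcnh1 by treatment group and sex, with 1 point per mouse and a line at each mean. Kcne4 after PSD + restraint stood above the controls in both sexes, and Scn9a stood above them in females.

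Because the start of each gene is where hormone- and stress-driven transcription factors are known to bind, the reference sequence upstream of Kcne4, Scn9a and Kcnk5 is shown, together with that of Scn10a and Scn11a, which were chosen after their values, given further on, were seen. Each run is 300 bases from RefSeq on GRCm38.p6, 250 before to 50 after the annotated start, 5′ to 3′ on the strand of the gene. Capitals mark matches on either strand to TGACG, the core of the cAMP response element. The windows lie at chr1:78816661-78816960 (plus strand) for Kcne4, chr2:66634913-66635212 (minus) for Scn9a, chr14:20181733-20182032 (minus) for Kcnk5, chr9:119718983-119719282 (minus) for Scn10a and chr9:119825407-119825706 (minus) for Scn11a.
Kcne4: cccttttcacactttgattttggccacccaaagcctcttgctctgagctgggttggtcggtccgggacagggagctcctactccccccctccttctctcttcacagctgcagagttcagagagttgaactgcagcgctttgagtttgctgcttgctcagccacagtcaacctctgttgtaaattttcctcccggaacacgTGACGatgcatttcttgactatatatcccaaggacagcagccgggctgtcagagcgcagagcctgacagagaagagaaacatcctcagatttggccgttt
Scn9a: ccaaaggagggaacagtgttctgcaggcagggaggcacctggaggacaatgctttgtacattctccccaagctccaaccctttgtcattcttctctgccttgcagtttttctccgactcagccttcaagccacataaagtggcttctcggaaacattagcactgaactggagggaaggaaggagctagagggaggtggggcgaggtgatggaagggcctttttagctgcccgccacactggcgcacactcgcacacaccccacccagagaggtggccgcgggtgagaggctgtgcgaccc
Kcnk5: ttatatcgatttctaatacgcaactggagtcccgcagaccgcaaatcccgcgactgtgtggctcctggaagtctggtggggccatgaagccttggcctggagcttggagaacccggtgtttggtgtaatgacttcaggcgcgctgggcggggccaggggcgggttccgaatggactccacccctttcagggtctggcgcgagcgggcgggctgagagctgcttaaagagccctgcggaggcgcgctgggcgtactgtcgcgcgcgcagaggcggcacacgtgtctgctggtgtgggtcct
Scn10a: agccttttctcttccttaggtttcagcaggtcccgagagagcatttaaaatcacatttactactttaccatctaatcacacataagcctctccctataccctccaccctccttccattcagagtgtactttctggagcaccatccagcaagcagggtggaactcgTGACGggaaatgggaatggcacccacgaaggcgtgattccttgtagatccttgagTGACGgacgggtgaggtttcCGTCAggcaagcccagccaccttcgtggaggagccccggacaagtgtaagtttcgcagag
Scn11a: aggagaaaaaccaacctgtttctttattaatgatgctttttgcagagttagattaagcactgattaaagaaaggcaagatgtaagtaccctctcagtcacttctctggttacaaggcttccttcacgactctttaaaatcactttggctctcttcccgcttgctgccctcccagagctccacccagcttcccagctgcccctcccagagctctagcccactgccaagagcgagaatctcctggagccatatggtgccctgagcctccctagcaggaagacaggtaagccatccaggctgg

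Kcne4 held 1 match to TGACG, which began 50 bases before its RefSeq start, and Scn10a held 3, while Scn9a, Kcnk5 and Scn11a held none. GENCODE M21 places the starts of Kcne4 and Scn10a further upstream, at chr1:78816758 and chr9:119719322. By that annotation the matches of both genes lie within the gene and not before it. None of the 5 windows held the full palindrome TGACGTCA, which contains TGACG, the NBRE site AAAGGTCA of NR4A receptors or the AP-1 site TGAGTCA. Of 32851 promoters in the table, 20.8% held TGACG, 1.79% the palindrome, 1.51% AAAGGTCA and 5.2% TGAGTCA. Of the 103 channel genes matched by symbol (Kcnmb4os1 was not), 24 held TGACG (23.3%), 0 the palindrome, 1 AAAGGTCA and 2 TGAGTCA. These are letters in a window and not measured sites.

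Restraint alone called no channel gene with edgeR, against 1.15% of all genes over all mice, 0.537% in females and 0.279% in males. At an unadjusted p under 0.05 there were 7 of 135 over all mice (5.19%, against 10.3% of all genes), 2 of 130 in females (1.54%, against 9.72%) and 8 of 130 in males (6.15%, against 5.05%). DESeq2 called 2 over all mice, Kcne4 and Kcnmb4os1, and 0 in either sex. The matching share of all genes is not given here. The male change with the smallest p was that of Kcnt2 (1.17, adjusted p = 0.112), with both restrained males at 1.03 and 1.11 CPM and the controls at 0.552, 0.473, 0.497 and 0.384 CPM, but only 2 restrained males were measured.

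Among proteins that act on channels, Gem responded to restraint. Gem, a small GTPase that lowers Cav current and is known as an immediate-early gene, was at 4.48 to 6.65 CPM in female controls, 24.2 to 46.5 CPM after restraint and 26.9 to 104 CPM after PSD + restraint. In males it was at 3.59 to 9.51 CPM in controls, 42.4 and 63.0 CPM after restraint and 76.0 to 120 CPM after PSD + restraint. No restrained mouse of either kind overlapped a control, and the log2 changes over all mice were 2.95 (adjusted p = 1.83e-06) and 3.56 (adjusted p = 3.17e-08). Of 27 genes for channel partners, 4 rose after PSD + restraint and none fell (4.06% of all genes rose and 1.44% fell): Gem, Rrad, a GTPase of the same family (1.24, adjusted p = 0.0190), Lrrc26, an auxiliary subunit of BK channels (0.71, adjusted p = 0.00107), and Stac3, an adaptor of L-type channels (0.39, adjusted p = 0.0144). Of 24 genes for other cation channels, 3 rose and none fell against the same shares, among them the intracellular calcium release channel Ryr3 (1.07, adjusted p = 0.000242) and the receptor-operated channel Trpc7 (0.91, adjusted p = 0.00373). Ryr3 (1.08, adjusted p = 0.00284) and Trpc7 (0.92, adjusted p = 0.0294) also rose after PSD alone, when Gem did not pass the test over all mice. The partner and cation channel lists were chosen with earlier results of these data known, so no excess is read from their counts.

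PSD alone, 18 h after its end, called no channel gene with edgeR over all mice (0.639% of all genes), in females (0.0277%) or in males (0.00547%). In females, however, 49 of 130 channel genes (37.7%) had an unadjusted p under 0.05, against 20.5% of all genes, and 37 of them were higher (28.5% of the channel genes, against 9.65% of all genes). The median size of the change was 0.32 over the channel genes and 0.14 over all genes. Counts were 14 of 130 (10.8%, against 8.86%) in males and 34 of 135 (25.2%, against 17.6%) over all mice. DESeq2 called 10 in females, 0 in males and 3 over all mice (Kcnip2, Kcnj4 and Scn11a). The share of all genes that DESeq2 called is not given here, so no excess is read from these counts. The female count leaned on single mice: without female PSD mouse 4, edgeR called 14 channel genes (2.89% of all genes), and without the 4 mice that stood apart 23 of the channel genes (17.7%, against 9.33%) had an unadjusted p under 0.05.

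The next 4 genes, Scn11a, Scn10a, Cacna1f and Cacna1g, are shown together because of their values in PSD females, so their likeness is a description, and none passed the test for PSD alone. Scn11a was at 6.61, 10.2, 10.9 and 10.4 CPM in female controls, at 4.47, 3.38, 2.64 and 4.34 CPM after PSD and at 3.73, 4.87, 4.90 and 6.25 CPM after PSD + restraint. Both PSD groups lay below all female controls and within or near the 2.79 to 4.62 CPM of the 12 males. The log2 changes were -1.36 for PSD (SE 0.24, adjusted p = 0.0616), which did not pass, and -0.95 for PSD + restraint (SE 0.23, adjusted p = 0.0395), which did. Restrained females, at 9.42, 6.59, 7.89 and 13.7 CPM, overlapped the controls.

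Scn10a, its neighbour on chromosome 9, was at 2.93, 6.29, 4.79 and 6.99 CPM in female controls, 1.87, 0.71, 1.64 and 1.07 CPM after PSD and 1.64, 0.966, 1.71 and 1.87 CPM after PSD + restraint, with all males at 0.447 to 1.54 CPM. Neither change passed (-2.0, adjusted p = 0.102, and -1.80, adjusted p = 0.0506), although no mouse of either PSD group overlapped a control. On GRCm38 Scn10a lies at chr9:119608456-119719322 and Scn11a at chr9:119753759-119825456, both on the minus strand. Cacna1f, an L-type pore known from photoreceptors, was at 4.26, 7.65, 5.67 and 10.4 CPM in female controls and 2.65, 1.64, 1.74 and 2.45 CPM after PSD (log2 change -1.72, SE 0.41, adjusted p = 0.102). Its groups did not overlap either. Cacna1g was at 22.8, 64.3, 15.2 and 77.6 CPM in controls and 23.6, 10.4, 13.7 and 10.3 CPM after PSD (log2 change -1.65, adjusted p = 0.132), with overlap. Female controls and restrained females each spread several-fold in Cacna1g.

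Cacna1i, a T-type calcium channel pore, leaned up in the same females. Cacna1i was at 26.8, 21.5, 24.9 and 17.6 CPM in controls and 42.2, 37.3, 28.9 and 29.7 CPM after PSD, without overlap (log2 change 0.59, adjusted p = 0.102). Female PSD mouse 1, the highest, was also a mouse with brain markers. Fshb, a gonadotroph hormone gene, was at 74.1 to 208 CPM in female controls and 69.5 to 469 CPM after PSD, and neurointermediate lobe markers summed to 828 to 1955 CPM after PSD. With the lobe score in the model the Scn11a change was -1.01 (adjusted p = 0.422), and its part in these changes was not tested further. The labels used here give no estrous stage, so cycle and treatment cannot be told apart in these females.

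**Figure D4:**
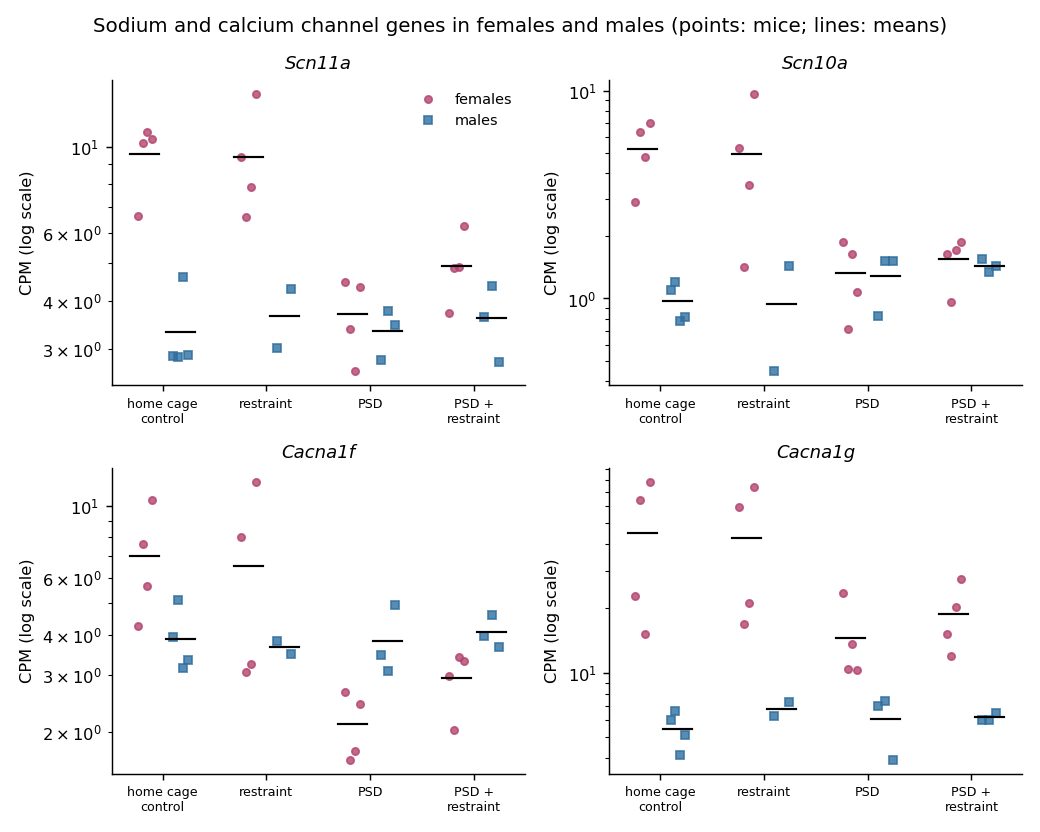
CPM (log axis) of Scn11a, Scn10a, Cacna1f and Cacna1g by treatment group and sex, with 1 point per mouse and a line at each mean. Scn11a and Scn10a in both female PSD groups lay below the female controls, and Cacna1g in males lay below every female.

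Whether the sexes responded differently was tested directly. No channel gene, and no gene at all (0%), was called by edgeR for a difference between the sexes in the response to restraint, PSD or PSD + restraint. At an unadjusted p under 0.05 there were 3 (2.22%, against 4.20% of all genes), 29 (21.5%, against 10.7%) and 19 (14.1%, against 7.22%) channel genes. These counts include the mice with brain markers and are not given here without them. DESeq2 called 0, 1 and 0, and the matching shares of all genes are not given here. The 1 was Scn11a, whose response to PSD differed by -1.38 between females and males (SE 0.34, adjusted p = 0.303 by edgeR), from -1.36 in females to 0.04 in males. Scn10a differed by -2.39 (SE 0.64, adjusted p = 0.303).

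The PSD by restraint interaction likewise called no gene (0%), with 4 channel genes at an unadjusted p under 0.05 (2.96%, against 3.92% of all genes) and 0 by DESeq2. PSD + restraint against restraint called no channel gene (0.0951% of all genes), with 15 at an unadjusted p under 0.05 (11.1%, against 13.7%) and 0 by DESeq2. PSD + restraint against PSD called 4 of 135 (2.96%, against 2% of all genes). Kcne4 (1.10) and Kcnk5 (0.71, SE 0.20, adjusted p = 0.0417) were higher, but the Kcnk5 call was lost in 9 of the 28 fits that each left out 1 mouse, and no channel gene was called without the 4 mice that stood apart. In the full fit Kcnj13 and Kcne2 were also called, as lower, by log2 changes of -4.08 and -2.90. The shares of all genes called with DESeq2 and without the 4 mice are not given here.

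Kcnj13 and Kcne2, an inward rectifier and a Kv accessory subunit known from choroid plexus, owed their calls to 1 mouse. Kcnj13 was at 40.5 CPM in female PSD mouse 3 and at 0.0813 to 0.675 CPM in the other 27 mice, and Kcne2 at 42.7 CPM there and 0.481 to 2.51 CPM elsewhere. The choroid plexus gene Ttr was at 5335 CPM in that mouse and 1.81 to 6.28 CPM in the others, and the choroid plexus markers, a list added after these values were seen, summed to 5739 CPM there against 64.9 to 93.6 CPM. Without that mouse the log2 changes were -0.52 and -0.54, and neither gene was called.

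Kcnj10 was high in the mice with brain markers. Kcnj10, the potassium buffering channel of astrocytes, was at 66.8 CPM in female PSD mouse 1, 14.4 CPM in female PSD mouse 3, 23.2 CPM in female PSD + restraint mouse 4 and 17.9 CPM in male control mouse 1, against 3.91 to 9.21 CPM in the other 24 mice. Forebrain neuron markers summed to 258 CPM in female PSD mouse 1, 172 CPM in female PSD + restraint mouse 4 and 102 CPM in male control mouse 1. Female PSD mouse 3, at 82.7 CPM, did not stand apart from the 30.5 to 81.3 CPM of the other mice in this list. Kcnj4, an inward rectifier of forebrain neurons, was at 11.6 CPM in female PSD mouse 1 and 7.27 CPM in female PSD + restraint mouse 4. Male control mouse 1 was also low in neurointermediate lobe markers, at 183 CPM, and in Scn7a, the sodium-sensing channel, at 1.70 CPM against 27 to 74.3 CPM elsewhere, and in Kcnh1, at 4.90 CPM against 13.2 to 15.6 CPM in the other male controls.

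**Figure D5:**
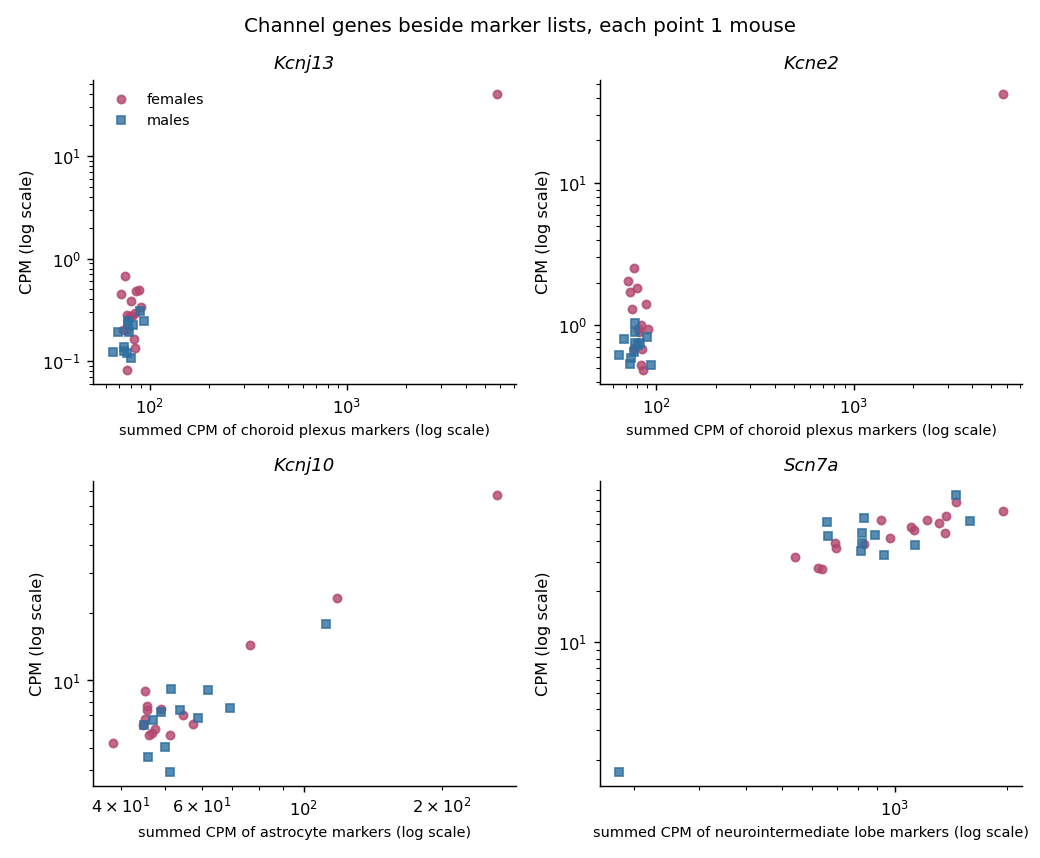
CPM of Kcnj13 and Kcne2 against summed choroid plexus markers, of Kcnj10 against astrocyte markers and of Scn7a against neurointermediate lobe markers (log axes), with 1 point per mouse. The lone high point for Kcnj13 and Kcne2 is female PSD mouse 3, and the lone low point for Scn7a is male control mouse 1.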

How the data were processed

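Whole pituitary RNA of 28 mice was sequenced from poly(A)-selected stranded libraries. MapSplice placed the reads on mm10 and HTSeq 0.9.1 (intersection-nonempty) gave the counts per gene that the authors deposited, which carry no normalization and were used here. A deposited table of the same counts divided by size factors (a signal) was not used. Rows were tested after edgeR's filterByExpr with TMM scaling and the quasi-likelihood test of edgeR 4.0.16 in R 4.3.3, fitted on all groups of a sex or on all mice with sex as a covariate. P-values were adjusted over all genes tested, and a call needed an adjusted p of at most 0.05 and a change of at least 1.25-fold. DESeq2 1.42.0 was the alternative tool, and the authors' own DESeq2 was version 1.16.1. TPM used the mean transcript length of GENCODE M21. Scores of neurointermediate lobe and forebrain markers entered alternative fits as covariates. The code was tested on simulated data.

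Each library is 1 mouse, and no pair of libraries agreed within sampling noise (chi-square over its degrees of freedom was at least 7.52 in 37 pairs). Equal replicate numbers in different groups name different mice, and the labels used here give no pairing. Correlations of same-numbered mice ran from -0.426 to 0.460 over 87 pairs, and 24 were over 0.1. Differently numbered mice were not set beside them, so shared handling by number was not tested. The channel genes and every list were chosen with earlier results of these data known. Up to 12 called genes with the smallest p, or the 3 with the smallest p where none was called, were named per comparison, with the 3 of highest mean TPM in a class and the called genes of the partner and cation channel lists, and further genes were named after their values were seen. Some called or abundant genes are counted but not reported here by name.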

Additional observations from a re-analysis of the deposited data

Results flagged for a closer look

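Of 149 pairs of a gene and a group of 4 mice, 13 held a mouse far from the other 3, and chance alone gives about 1 in 20. In 5 the mouse was one of the 4 that stood apart in brain markers: female PSD mouse 3 had Kcne2 at 42.7 CPM (next highest 1.42) and Kcnj13 at 40.5 CPM (0.675), female PSD mouse 1 had Kcnj4 at 11.6 CPM (3.08), and female PSD + restraint mouse 4 had Kcnma1 at 26.1 CPM (next lowest 32.5) and Scn4b at 0.748 CPM (next highest 0.386). In female controls, Kcnh1 was at 20.2 CPM in mouse 1 (next highest 15.2), Scn11a at 6.61 CPM in mouse 1 (next lowest 10.2), Kcnt2 at 1.25 CPM in mouse 3 (next highest 0.680) and Scn4b at 1.81 CPM in mouse 2 (0.427). Kcnk12 was at 16.2 CPM in female PSD mouse 4 (11) and Kcnt2 at 1.86 CPM in female PSD + restraint mouse 1 (1.12). In male controls, Scn11a was at 4.62 CPM in mouse 3 (2.91) and Hcn2 at 16 CPM in mouse 4 (12.8).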

How the results depend on the processing

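No result changed direction. Counts of channel genes called, here and in the next paragraph, are given without the shares of all genes, so no excess is read from them. They moved as follows. In females after PSD (0), DESeq2 called 10 and the fit with a replicate block 1. In females after PSD + restraint (5), DESeq2 called 10, the groups compared alone 8, a mean of at least 1 TPM and the forebrain score 3 each, and the neurointermediate lobe score and the fit without the 4 mice that stood apart 0 each. In males after PSD + restraint (4), DESeq2 called 7, at least 10 counts in every mouse and at least 1 TPM 2 each, the lobe score 1 and the replicate block 0. Over all mice, restraint (0) gave 2 with DESeq2, 1 with the replicate block and 1 with the forebrain score, and PSD (0) gave 3 with DESeq2. PSD + restraint against controls (9) gave 5 without a filter, 5 at 1 TPM, 4 with the replicate block and 2 with the lobe score. PSD + restraint against PSD (4) gave 1 at 10 counts, 1 with the replicate block, 2 with the forebrain score and 0 without the 4 mice. The sex difference in the PSD response (0) gave 1 with DESeq2. The causes were not tested. The replicate numbers name different mice, and what the loss of calls under the block reflects was not tested.

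Leaving out each mouse in turn gave 44 to 50 for females against males, 27 to 36 for the controls alone, 3 to 14 for PSD + restraint over all mice, 1 to 5 against PSD, 0 to 2 for PSD, 0 to 1 for restraint, 0 to 14 for PSD in females, 0 to 8 for PSD + restraint in females and 0 to 5 in males. The lowest count over all mice came without female control mouse 4 or male PSD + restraint mouse 1 or 2, and the highest without male PSD + restraint mouse 3. The count of 0 came without female control mouse 2, 3 or 4 or female PSD + restraint mouse 1 in females and without male PSD + restraint mouse 1 or 2 in males, and the 14 in females without female PSD mouse 4. Only 2 restrained males were measured, and Kcne4 rests on 7 to 67 counts per mouse.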

Other observations

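Genes outside the channel families also differed between females and males. Of the 27 channel partners, 2 were higher and 5 lower in females (7.07% of all genes were higher and 7.84% lower). Fgf12, an intracellular factor that binds sodium channels, and Rem2, a GTPase that lowers calcium current, were higher by 0.46 and 0.45 on the log2 scale. Dpp6, which speeds A-type channels, Fgf14, a relative of Fgf12, Stac2, Lrrc52 and Gem were lower, by log2 changes of -0.51, -0.37, -1.13, -0.80 and -0.69. Of the 24 other cation channels, 2 were higher and 6 lower, against the same shares of all genes. The receptor-operated channel Trpc6 was higher by 0.44, while Trpc4, Trpc5 and Trpc1 were lower by log2 changes of -0.81, -0.52 and -0.37. The calcium release channels Itpr3 and Itpr1 were lower by -0.76 and -0.34, and Trpm2 by -0.40. Both lists were chosen with earlier results known, so no excess is read from these counts.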
